A study of Arabidopsis thaliana with 11 samples.

Results

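XTH16, XTH19, XTH32 and XTH33 are 4 of the 33 genes that encode xyloglucan endotransglucosylase/hydrolases in Arabidopsis thaliana. Their transcript levels were followed in dark-grown seedlings of 2 genotypes, each grown with and without an inhibitor of brassinosteroid synthesis. Each gene was represented by the 1 probe set that the platform annotation assigns to it alone. Together they make up 4 of the 10 family members that could be measured, and 4 of the 12707 genes covered by the tested probe sets. The 4 genes were chosen with earlier results of the same arrays known. They are the 4 of the 10 measured members that the linear model calls higher on the inhibitor in the wild type. Their levels are therefore given as a description, with standard errors (SE) and without p-values. The member nearest to that limit on the inside was XTH19, with a log2 difference of 0.54 ± 0.15 SE, and the nearest on the outside was XTH18, with 0.39 ± 0.13 SE.

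Xyloglucan is a branched polysaccharide that coats and tethers cellulose in the primary cell wall. XTH enzymes cut its backbone and rejoin the cut end to another xyloglucan chain, and a few members join it to water instead, which shortens the chain. The family takes part in wall loosening and in wall assembly during cell elongation, and TCH4 (XTH22) is a textbook brassinosteroid-induced member. Brassinosteroids drive hypocotyl elongation in darkness, and ARF2, an auxin response factor that acts as a repressor, has been linked to both hormone pathways.

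Total RNA came from 4-day-old etiolated seedlings and was hybridised to Affymetrix ATH1 arrays. The Col wild type was grown on mock medium (3 arrays) or on 0.5 µM brassinazole (BRZ, the inhibitor; 3 arrays), and the arf2 mutant on mock medium (3 arrays) or on 0.5 µM BRZ (2 arrays). The labels name no arf2 allele and no number of seedlings per sample, and 1 further array of arf2 on BRZ had failed the submitters' quality control. Values are log2 gcRMA intensities per probe set, and a difference of 1 on this scale is a doubling.

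Array levels were uneven. Over the tested probe sets the median was 5.96, 5.93 and 6.20 (log2) for Col mock and lay between 6.09 and 6.28 on the other 8. A lower quartile between 4.44 and 4.65 marks the range of dim probe sets. Intensities of 25S ribosomal RNA, a control on the array, were higher on all arf2 mock arrays (173 to 263) than on the others. They lay between 59.7 and 131 in the Col groups and at 33.6 and 63.9 on arf2 BRZ, where the higher array lay within the Col range. No probe set is named for ARF2, so its transcript was not analysed here. The darkness marker PORA was not measured either, and of 5 light-grown leaf markers the 2 measured ones were bright on every array. LHCB4.2, a light-harvesting antenna protein, lay between 11.4 and 12.1 on the log2 scale, and RCA, rubisco activase, between 10.7 and 11.3. Their summed intensity ranged from 4815 to 5610 on Col mock, from 5879 to 6506 on Col BRZ, from 4990 to 5228 on arf2 mock and from 4543 to 6517 on arf2 BRZ. The sum joins 2 markers whose differences between BRZ and mock had opposite signs. On the log2 scale LHCB4.2 differed by 0.44 ± 0.13 SE in Col and by 0.27 ± 0.15 in arf2. RCA differed by -0.08 ± 0.13 in Col and by -0.17 ± 0.14 in arf2.

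XTH16 (AT3G23730, chromosome 3) had the largest differences of the 4 genes between media and between genotypes, and all 4 groups stood apart from each other. Its log2 level was 7.79, 7.82 and 8.01 for Col mock and 9.76, 9.21 and 9.91 for Col BRZ. In arf2 it was 6.96, 7.37 and 6.77 on mock and 8.61 and 8.95 on BRZ. The order was Col BRZ, arf2 BRZ, Col mock and arf2 mock, and the smallest gap between neighbouring groups was 0.26 on the log2 scale. Every array of each group lay above every array of the next. Of the 21886 tested probe sets 39 showed the same order without overlap (0.178%). The order counted was read from XTH16 itself, so this share does not measure how unusual the gene is.

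The level of XTH16 was 3.36-fold higher on BRZ than on mock in Col (log2 difference 1.75 ± 0.19 SE, 3 arrays against 3) and 3.37-fold higher in arf2 (1.75 ± 0.22, 2 against 3). A larger log2 rise was seen for 24 tested probe sets in Col and for 17 in arf2, beside a gene that was chosen on these groups. The mutant sat below the wild type by nearly the same amount on both media, by 1.79-fold both on mock (log2 difference -0.84 ± 0.19) and on BRZ (-0.84 ± 0.22). Subtracting the log2 BRZ effect of Col from that of arf2 left 0.0017 ± 0.29 SE. In whole seedlings fewer cells that express a gene and less transcript per cell cannot be told apart, for this gene and those that follow.

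XTH32 (AT2G36870, chromosome 2) belongs to the branch of the family, shared with XTH31, whose members are known or predicted to hydrolyse xyloglucan. On the log2 scale it read 6.32, 5.79 and 6.44 on Col mock, and the Col BRZ arrays read 7.49, 7.51 and 7.75. In arf2 it read 5.37, 6.06 and 5.93 on mock and 7.18 and 7.23 on BRZ. All 5 BRZ arrays lay above all 6 mock arrays, with a gap of 0.75 on the log2 scale. The 2 mock groups overlapped, while the arf2 BRZ arrays lay below the Col BRZ arrays by at least 0.25. Levels of XTH32 were 2.64-fold higher on BRZ in Col (log2 difference 1.40 ± 0.19 SE) and 2.68-fold higher in arf2 (1.42 ± 0.22). The arf2 minus Col difference was -0.39 ± 0.19 on mock and -0.37 ± 0.22 on BRZ, of the same sign as for XTH16 and smaller. The difference on mock moved with single arrays. It was -0.18 ± 0.18 without arf2 mock array 1, -0.26 ± 0.21 when Col mock array 3 was dropped, and -0.59 ± 0.17 when Col mock array 2 was. With arf2 mock array 3 and the Col mock arrays 1 and 2 all left out, a choice made after seeing the data, it was -0.72. There the wild type on mock rests on Col mock array 3 alone, which had the highest mock reading. The 2 BRZ effects, arf2 less Col, differed by 0.02 ± 0.29.

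XTH19 (AT4G30290, chromosome 4) is a member of a group of XTH genes best known from the elongating root, and with XTH20 it is known from the healing of cut stems. The log2 values were 9.73, 10.09 and 10.04 for Col mock and 10.65, 10.14 and 10.70 for Col BRZ. They were 9.63, 9.80 and 9.77 for arf2 mock and 10.34 and 10.16 for arf2 BRZ. The BRZ arrays lay above the mock arrays in both genotypes, but by only 0.05 in Col, where Col BRZ array 2 was the low one. The same array was the lowest of its group for XTH16 and not for XTH32 or XTH33. The 2 genotypes overlapped on each medium.

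The BRZ effect on XTH19 was a 1.46-fold higher level in Col (log2 difference 0.54 ± 0.15 SE) and a 1.43-fold higher level in arf2 (0.52 ± 0.17). Without Col BRZ array 2 the difference in Col was 0.72, and with equal array medians it was 0.36 ± 0.16. In arf2 the level differed from Col by -0.22 ± 0.15 on mock and by -0.24 ± 0.17 on BRZ. Both of these differences are less than 1.5 times their SE in the main fit. With each array left out in turn they lay between -0.33 and -0.15 on mock and between -0.42 and -0.14 on BRZ. The low end on BRZ was -0.42 ± 0.14, without Col BRZ array 2. With equal array medians the differences were -0.36 ± 0.16 on mock and -0.29 ± 0.18 on BRZ. Of 6 root hair markers 2 were measured, the expansins EXPA7 and EXPA18, and both lay in or near the dim range. On Col mock array 2, where both were highest, EXPA7 read 5.21 and EXPA18 5.12 on the log2 scale. Their summed intensity was 38.3 to 71.9 for Col mock, 47.1 to 51.4 for Col BRZ, 40.4 to 55.8 for arf2 mock and 37.4 to 44.4 for arf2 BRZ, and its part in the XTH19 level was not tested.

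XTH33 (AT1G10550, chromosome 1) encodes a family member that is anchored in the plasma membrane. It differed from the other 3 in that its higher level on BRZ was seen in Col and not in arf2. Log2 levels were 6.93, 7.11 and 7.08 on Col mock, and the Col BRZ arrays had 7.59, 7.87 and 7.84. In arf2 they were 7.06, 6.96 and 6.90 on mock and 7.14 and 6.84 on BRZ. The 3 Col BRZ arrays lay above all 8 others by at least 0.45, and the other 3 groups overlapped each other. This arrangement was found for 321 tested probe sets (1.47%). It was read from XTH33 itself, so the share does not measure how unusual the gene is.

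XTH33 was 1.65-fold higher on BRZ in Col (log2 difference 0.72 ± 0.11 SE), whereas in arf2 the log2 difference was 0.0098 ± 0.13. On mock the genotypes differed by -0.06 ± 0.11, and on BRZ arf2 lay 1.72-fold below Col (-0.78 ± 0.13). Taking arf2 less Col, the 2 BRZ effects differed by -0.71 ± 0.17, and this difference lay between -0.87 and -0.56 when each array was left out in turn. For XTH16, XTH19 and XTH32 the same quantity lay within 0.03 of 0, each with an SE between 0.23 and 0.29. With each array left out in turn it ran from -0.21 to 0.17 for XTH16. It ran from -0.21 to 0.085 for XTH19 and from -0.19 to 0.22 for XTH32. The XTH33 estimate in arf2 rests on 2 arrays that stood on either side of the arf2 mock range. No test of the XTH33 difference is given, since the gene was chosen on these groups.

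**Figure D1:**
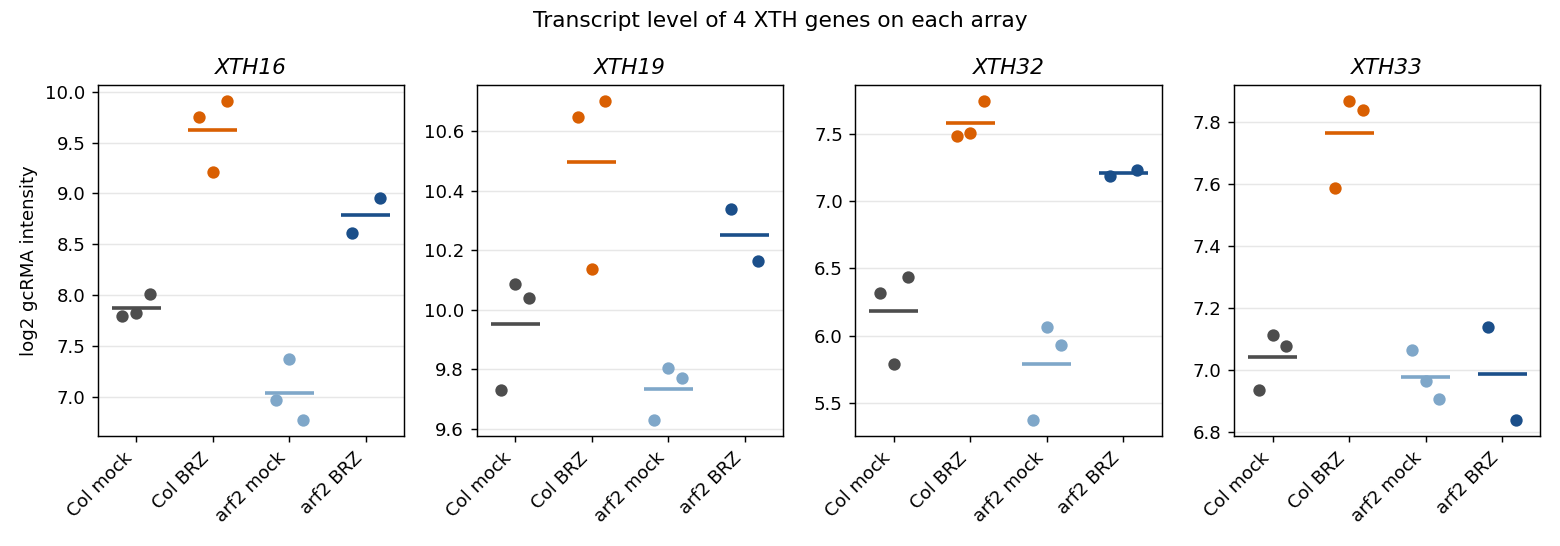
Log2 gcRMA intensity (vertical axis, a separate range for each gene) of XTH16, XTH19, XTH32 and XTH33 on each array, in columns for Col mock, Col BRZ, arf2 mock and arf2 BRZ. Points are arrays and horizontal lines are group means. The BRZ arrays lie above the mock arrays in both genotypes for XTH16, XTH19 and XTH32, and in Col alone for XTH33.

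The 4 genes can be read against all probe sets of the arrays. In Col 4 of 4 lay higher on BRZ without overlap, as did 19.0% of tested probe sets, and 4 of 4 were called higher, as were 6.20%. Both counts follow from how the genes were chosen. In arf2 XTH16, XTH19 and XTH32 lay higher on BRZ without overlap, as did 22.0% of tested probe sets. On mock the 1 gene lower in arf2 without overlap was XTH16 (5.70% of probe sets). On BRZ XTH16, XTH32 and XTH33 were lower in arf2 without overlap (15.4%). The 4 comparisons share arrays, so their values are not independent of one another.

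The low medians of 2 Col mock arrays move with every comparison that uses Col mock. When all arrays were set to the same median, the BRZ difference in Col went from 0.06 to -0.12 for the median probe set. The BRZ difference in Col was then 1.57 ± 0.18 SE for XTH16 and 1.22 ± 0.18 for XTH32. It was 0.54 ± 0.13 for XTH33. All 4 genes kept a higher level on BRZ in Col. Between arf2 and Col on mock, the same step changed XTH16 to -0.99 ± 0.18 and XTH33 to -0.21 ± 0.13. XTH19 became -0.36 ± 0.16 and XTH32 became -0.54 ± 0.18.

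**Figure D2:**
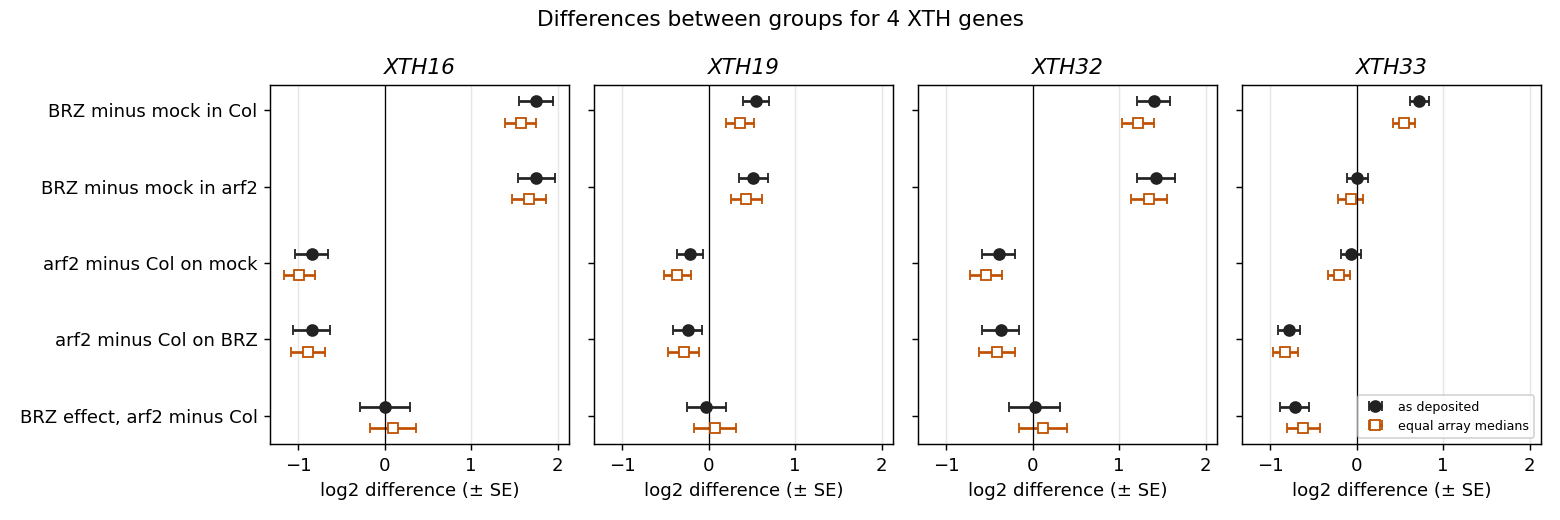
Log2 differences between groups (horizontal axis, with SE bars) for each of the 4 genes, from the values as deposited (filled circles) and with all arrays set to the same median (open squares). The last line of each panel is the difference of the 2 BRZ effects, arf2 less Col, which is -0.71 for XTH33 and near 0 for the other 3 genes.

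The other 29 family members served as the comparison, of which 6 were measured. XTH27 was the 1 called in Col, where 2.74% of tested probe sets were called lower on BRZ. XTH27 fell on BRZ, by 0.40 on the log2 scale (SE 0.08, limma's adjusted p 0.0107), from levels between 10.6 and 10.7 on Col mock to between 10.2 and 10.4 on Col BRZ. Its direction was opposite to that of the 4 genes above. In arf2 the XTH27 difference was -0.25 ± 0.09 (adjusted p 0.163), and the difference of the 2 effects did not pass the interaction test (0.15 ± 0.12, adjusted p 0.783). That call depended on Col BRZ array 3 (adjusted p 0.0575 without it), and it was lost with 3 arrays left out, arf2 mock 3, Col mock 1 and Col mock 2 (adjusted p 0.116). It was also lost in a fit of the Col arrays alone (adjusted p 0.0611). Over all 20 alternatives the adjusted p ran from 0.00466 to 0.116, and 17 of them kept the call.

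XTH18, the gene next to XTH19 on chromosome 4, is its close relative, and the separation of their transcripts by the probe sets was not checked here. XTH18 read 8.65, 8.58 and 8.57 on Col mock, all below the 9.07, 8.88 and 9.02 of Col BRZ. In arf2 it read 8.22, 8.78 and 8.73 on mock and 8.54 and 8.53 on BRZ, where the groups overlapped. The BRZ difference was 0.39 ± 0.13 SE in Col (adjusted p 0.0944) and -0.04 ± 0.15 in arf2 (adjusted p 0.919), and neither passed the test. The difference in Col passed without arf2 mock array 1 (adjusted p 0.0265, between 0.0265 and 0.374 over the alternatives). XTH20, XTH21, XTH26 and XTH29 had group means between 3.82 and 4.71, in or near the dim range, and none was called in any comparison. XTH20 was called lower with equal array medians, on BRZ in Col (adjusted p 0.0219) and in arf2 on mock (adjusted p 0.0144), and likewise without Col mock array 2 (adjusted p 0.0493 and 0.0196). Over the alternatives these p ran from 0.0219 to 0.346 and from 0.0144 to 0.292.

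Among the 6 genes XTH20, XTH21, XTH26 and XTH29 lay in or near the dim range, which limits what medians and counts over the 6 can show. Over the 6 genes the median log2 change was -0.09 for BRZ against mock in Col, beside 0.06 for all tested probe sets. It was -0.13 in arf2, beside 0.0011. Between arf2 and Col the medians were -0.0087 on mock and -0.10 on BRZ, beside 0.05 and 0.005, and limma called none of the 6 in either (2 and 1 had an unadjusted p under 0.05). Also none was called between BRZ and mock in arf2 (2 had an unadjusted p under 0.05). The shares of all tested probe sets called there, either way, were 7.35% for arf2 against Col on mock, 0.617% on BRZ and 5.81% for BRZ in arf2. An unadjusted p under 0.05 was found for 20.6%, 9.65% and 17.5% of all tested probe sets in these 3 comparisons. The interaction was called for 0.841% of probe sets and for none of the 6, of which 0 had an unadjusted p under 0.05 (9.25% of all tested probe sets).

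**Figure D3:**
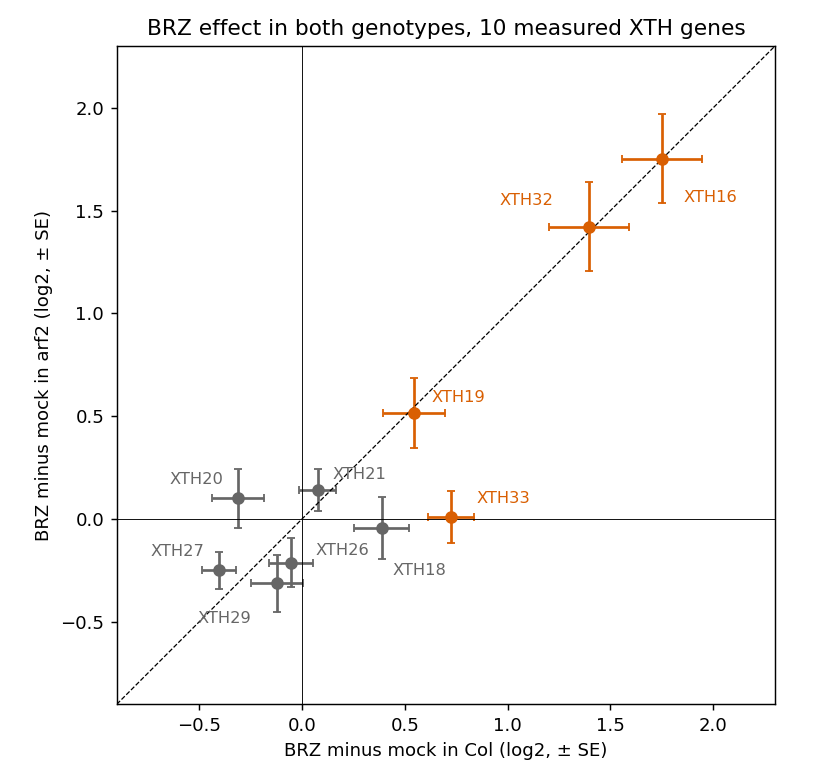
BRZ effect in arf2 (vertical axis) against BRZ effect in Col (horizontal axis), both as log2 differences with SE bars, for the 10 measured XTH genes. Orange points are XTH16, XTH19, XTH32 and XTH33, grey points are the other 6, and the dashed line marks equal effects. XTH16, XTH19 and XTH32 lie on the line, and XTH33 lies below it, beside XTH18.

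Genes that supply the substrate were examined from a list of 18 that synthesise or trim xyloglucan, of which 5 were measured, all from the CSLC family that makes its glucan backbone. None of the 5 passed limma's test for BRZ against mock in Col or in arf2, while 2 had an unadjusted p under 0.05 in each. Of all tested probe sets 8.94% were called in Col and 5.81% in arf2, and 26.8% and 17.5% had an unadjusted p under 0.05. Their median log2 change was 0.35 in Col and 0.31 in arf2. CSLC8 had the largest differences, 0.60 ± 0.19 SE in Col (adjusted p 0.0705) and 0.79 ± 0.21 in arf2 (adjusted p 0.0519). Its levels in arf2 went from between 5.47 and 5.79 on mock to 6.58 and 6.28 on BRZ, without overlap. The call in arf2 was made under 8 of 20 alternatives, with an adjusted p from 0.00234 to 0.366 over the 20. Leaving out Col mock array 3 called CSLC8 (adjusted p 0.00533) and CSLC5 (adjusted p 0.0440) in Col and CSLC8 in arf2 (adjusted p 0.0124), leaving out Col mock array 2 called CSLC8 in arf2 (adjusted p 0.00612), and leaving out Col BRZ array 1 called CSLC4 in Col (adjusted p 0.0330). CSLC4, the member with the main role in backbone synthesis, differed by 0.35 ± 0.11 in Col (adjusted p 0.0742) and by 0.36 ± 0.12 in arf2 (adjusted p 0.134). CSLC12 lay in the dim range and had differences of 0.08 ± 0.12 and -0.02 ± 0.13.

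No CSLC gene was called between arf2 and Col, with median log2 changes of -0.07 on mock and -0.04 on BRZ and no unadjusted p under 0.05. Over all tested probe sets the medians were 0.05 and 0.005. Of these probe sets 7.35% were called on mock and 0.617% on BRZ, and 20.6% and 9.65% had an unadjusted p under 0.05. At these shares, no call among 5 genes says little about them. Of 13 genes for cellulose synthesis only COB, a membrane-anchored protein needed for oriented cellulose deposition, was measured. COB lay between 9.54 and 9.75 on all 11 arrays and was not called in any comparison (unadjusted p between 0.604 and 0.916 for BRZ and genotype).

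Among 12703 other genes, those whose log2 levels followed each of the 4 most closely over the 11 arrays were listed by Pearson's r. The arrays are shared by all these genes, and with so many candidates high values of r are to be found. For XTH16 the first 5 were AT3G60245 (r = 0.97), AT2G02610, AT1G52300, AT1G21050 and AT2G02170 (r = 0.95). AT2G02610 had group means between 3.99 and 4.49, in or near the dim range. AT1G21050 was 1.34 higher on BRZ in Col and 1.05 higher in arf2 on the log2 scale, and AT1G52300 only 0.20 and 0.23. A high r therefore did not mean a change of like size.

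The XTH19 pattern was followed most closely by AT4G16450 (r = 0.95), AT1G78040, AT3G05760, AT1G21050 and AT3G25470 (r = 0.93). AT1G21050 was in the first 5 of both XTH16 and XTH19. XTH32 was followed by AT5G40510 (r = 0.97), AT1G15930, AT2G22230, AT5G01210 and AT4G19530 (r = 0.95). AT4G19530 had group means between 4.59 and 5.27, with the low end in the dim range. AT5G01210 came nearest in size, with log2 differences of 1.097 in Col and 1.182 in arf2.

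For XTH33 the first 5 were AT3G44500 (r = 0.97), SWEET11, AT5G35680, AT1G72020 and AT4G20100 (r = 0.90). AT3G44500 had group means between 4.02 and 4.38 and AT4G20100 between 3.96 and 4.22, both in or near the dim range. SWEET11 (AT3G48740), a sugar transporter of the plasma membrane, had a log2 difference between BRZ and mock of 0.57 in Col and -0.17 in arf2, and on BRZ it was 0.93 lower in arf2 than in Col. AT1G72020 had 0.36 in Col and 0.20 in arf2.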

How the data were processed

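The authors deposited linear gcRMA intensities, 1 per probe set, with simpleaffy used for quality control, per the series' design text. gcRMA includes background correction and normalization between arrays, and its version is not given in the sources used here. Their log2 was taken. After removal of 64 control probe sets and of 860 with fewer than 2 arrays above 4 (log2), 21886 were tested. All 11 arrays entered 1 model in limma 3.58.1 (R 4.3.3), with 1 mean per group and a shared variance per probe set. The adjusted p is limma's moderated two-sided p after Benjamini-Hochberg correction over all tested probe sets, called under 0.05. The procedure was tested on simulated data. Gene names come from the platform annotation and the TAIR10.1 gene table, which names no gene for 8730 of 22746 probe sets. Figures were drawn with matplotlib 3.10.9. Arrays give no counts, and their number limits the precision.

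The 4 genes, the gene lists and the alternatives were chosen with earlier results of these data known. Named genes are the 4, list members that were called or mark a list's range, markers, and the 5 genes of highest r for each of the 4. None of the 4 genes or the other listed genes had several probe sets, so averaging them was not run as an alternative. For the genes ranked by r and the chromosome neighbours, any gene with several tested probe sets was represented by that of highest mean log2. Amino acid and promoter sequences were not used here.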

Additional observations from a re-analysis of the deposited data

Results flagged for a closer look

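XTH18 was picked out because all 3 Col BRZ arrays lay above the Col mock mean while both arf2 BRZ arrays lay below the arf2 mock mean. The difference of the BRZ effects, arf2 less Col, was -0.43 ± 0.20 SE on the log2 scale, which did not pass limma's test (adjusted p 0.551, between 0.125 and 0.955 over the alternatives). EXPA18, a root hair marker in or near the dim range, had the same arrangement, with -0.46 ± 0.40 SE (adjusted p 0.805).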

How the results depend on the processing

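For the 4 genes, 384 of 396 values under 20 alternatives moved by less than the SD between arrays of a group, and the 30 that changed sign did so from differences of at most 0.064 on the log2 scale. These counts include alternatives that cannot move a difference, such as another filter or the loss of an array from a group not compared. They therefore overstate how stable the values are. The XTH33 difference between BRZ and mock in Col became 0.55 with quantile normalization and 0.54 with equal array medians, and its genotype difference on mock became -0.22 and -0.21. Leaving out 3 arrays (Col mock 1 and 2, arf2 mock 3), a choice made after seeing the data, gave -0.72 for XTH32 between genotypes on mock and 0.35 for the difference of its BRZ effects. With each array left out in turn, XTH33 on BRZ in arf2 ran from -0.14 (without arf2 BRZ array 1) to 0.16, its genotype difference on BRZ from -0.93 to -0.63, and the difference of its BRZ effects from -0.87 to -0.56. A group reduced to 1 array took its spread from the rest. The cause of these moves was not tested.

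Of the 6 other XTH genes 1 was called on BRZ in Col. This count was 2 with equal array medians and with 2 arrays (arf2 mock 3, Col mock 2) left out, and 0 in a fit of the Col arrays alone and without the 3 arrays, and it ran from 0 to 2 with single arrays left out. On mock it was 1 between genotypes with equal array medians and with those 2 arrays left out (0 to 1 with single arrays left out), and on BRZ 1 in a fit of only these groups. Of the 5 CSLC genes 1 was called in Col with array weights (0 to 2 with single arrays left out). In arf2 1 was called with the filter at a log2 value of 5, equal array medians, array weights, a fit of the arf2 arrays alone and both sets of arrays left out (0 to 1 with single arrays left out).

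The background counts moved more. For BRZ in Col 1956 calls became 959 with only those groups, 903 without the 3 arrays, and 936 to 5084 with single arrays left out. For BRZ in arf2 1271 became 2693 with array weights, 2199 without the 3 arrays and 503 to 1825. Between genotypes on mock 1609 became 663 with only those groups, 830 without the 3 arrays and 882 to 3040. On BRZ 135 became 903 with array weights, 372 with only those groups, 338 and 675 without the 2 or 3 arrays, and 49 to 256. For the interaction 184 became 301 with array weights and 62 to 344 with single arrays left out.

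A replicate block changed no call of the listed genes. It gave 783 calls for BRZ in arf2, 66 between genotypes on BRZ and 84 for the interaction, and 1.52 for XTH32 on BRZ in arf2. The numbers were not taken to pair the arrays. After subtraction of group means, r ran from -0.59 to 0.14 over the 15 same-numbered pairs in different groups. It ran from -0.44 to 0.60 over the 30 pairs of unlike number. Within the wild type, each mock array had a positive r with the BRZ array of its own number (0.12, 0.09 and 0.14). With the other BRZ arrays of the wild type its r was negative (-0.08 to -0.04). Deviations from a group mean cancel out, so a positive r with an array of a group forces negative values elsewhere in that group. The negative values are therefore not a separate observation. Whether the wild-type arrays were prepared in pairs was not tested.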

Other observations

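Of the 6 nearest protein-coding genes around each of the 4 (3 on either side), 2 were measured for XTH16, 3 for XTH19, 1 for XTH32 and 2 for XTH33. None of these 8 was called between BRZ and mock in either genotype, and 1, AT4G30310 near XTH19, was called higher in arf2 on mock (log2 difference 0.49, limma's adjusted p 0.0367). Of all tested probe sets 8.94% were called for BRZ in Col, 5.81% for BRZ in arf2 and 7.35% between genotypes on mock. At these shares, counts over 8 genes cannot show whether the neighbours differ from other genes. AT3G23740, next to XTH16, differed by -0.03 between BRZ and mock in Col and by 0.0072 in arf2. XTH24, XTH18 and XTH19 lie side by side on chromosome 4, and XTH24 was not measured.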
